A study of Arabidopsis thaliana with 4 samples.

Results

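The genes described here are 52 Arabidopsis loci known to be raised by low oxygen in many cell types, among them genes of fermentation, the oxidases that sense oxygen and a number of loci with no assigned function. They were taken as a list of loci. Of the 52, 34 had a probe set of their own that could be named here, out of 13411 such genes. The platform's annotation covered 14016 of the 22810 probe sets, so the other 18 loci may have probe sets that were not named. The platform's annotation named 29 of the 34. The other 5, ADH1, HB1, PCO1, PCO2 and SUS1, were named only by the list of changed genes that the study drew from these same arrays, so their direction is not independent evidence. AT1G33055, AT3G03270 and AT3G29970 are on that list too, which makes 8 genes on it. The platform's annotation names these last genes, so they were measured whatever their values.

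The samples were whole seedlings of KUA1-IOX, a T3 line in the Col-0 ecotype that expresses the chimeric factor XVE constitutively and transcribes KUA1, a MYB-like transcription factor, from the LexA promoter once estradiol has moved XVE into the nucleus. At 14 days of age the seedlings were moved to liquid MS medium. The estradiol group received 15 µM estradiol dissolved in ethanol for 4 h, and the mock group ethanol alone for the same time. RNA of 2 biological replicates per treatment went onto Affymetrix ATH1 arrays, each replicate on its own array. The genotype field of the labels calls the mock samples a control, whereas their titles name KUA1-IOX, and by the study's methods all plants were KUA1-IOX. None of the 4 arrays holds estradiol-treated seedlings without the construct, so the effects of estradiol and of KUA1 cannot be told apart. The transfer to liquid medium was common to both groups. In whole seedlings, a change in the number of cells that express a gene and a change in its RNA per cell cannot be told apart either.

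Plants sense falling oxygen through the N-degron pathway. Plant cysteine oxidases use oxygen to oxidise the first cysteine of group VII ethylene response factors (ERF-VII), which marks these factors for degradation, and when oxygen is scarce the factors persist and activate the core hypoxia genes. Those genes shift carbon use towards sucrose synthase, pyruvate decarboxylase and alcohol dehydrogenase, and include the oxidases themselves, so that the pathway limits its own output.

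The authors' MAS5 signals are linear, with 1 value per probe set and array, and were scaled array by array. A signal measures 1 probe set across arrays and is not compared between genes. Dim here means that the mean log2 signal of a group was in the lowest 40% of the probe sets in that group. The KUA1 signals went with the labels. KUA1 (AT5G47390) had signals of 1887 and 3373 on estradiol arrays 1 and 2, against 203 and 170 on mock arrays 1 and 2, which gave a log2 fold change of 3.76 (standard error, SE, 0.29). KUA1 was thus lower on estradiol array 1 than on estradiol array 2.

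The 26 measured hypoxia genes that the study did not list were split, with both estradiol arrays above both mock arrays for 12 (46.2%), both below for 3 and overlapping groups for 11, and no single gene passed the test across all probe sets. Of all 22746 probe sets, 16.1% had both estradiol arrays above and 18.0% had both below. The median log2 fold change, estradiol over mock, was 0.28 for these 26 genes, 17 of them with a positive value. The 8 genes on the study's list had been picked there for their change, so the 26 are a set from which changed genes were left out. Of the 8, 5 counted as measured only through that list, so counts over all 34 genes include members admitted for their change. Among the 29 genes named by the platform's annotation, 15 lay above (51.7%), 3 lay below and 11 overlapped. Their median log2 fold change was 0.43, and 20 were positive. With the 5 genes named only by the study's list, 20 of the 34 genes lay above, which is 58.8%. On the log2 scale the median was 0.53 over the 34 genes and -0.01 over all probe sets. The log2 fold change was positive for 25 genes and at least 1, that is 2-fold, for 11, and 1 gene was at least 2-fold lower. Among all probe sets 3.72% were at least 2-fold higher and 3.34% at least 2-fold lower.

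With limma and Benjamini-Hochberg adjustment over all probe sets, 0 of the 34 genes and 0.0% of the probe sets passed an adjusted p of 0.05. Among the genes the lowest adjusted p was 0.346, shared by SUS1, ADH1 and AT1G33055, and over the whole array it was 0.158. KUA1, the induced gene, was itself at limma adjusted p = 0.158, so it did not pass either. Unadjusted, limma's p was under 0.05 with a higher signal for 12 of the 34 genes, 35.3%, beside 2.73% of all probe sets. Of these 12, 4 were measured only through the study's list. Among the 29 genes named by the platform's annotation there were 8, which is 27.6%. Limma's unadjusted p was under 0.05 with a lower signal for 0 genes, beside 3.79% of all probe sets. The study's thresholds, a change of at least 2-fold with an unadjusted p under 0.05, were applied as the methods' t-test on log2 signals and are called the paper's criterion here. They were passed upwards by SUS1, ADH1, AT1G33055 and AT4G33560, 4 of the 34 genes beside 0.629% of all probe sets, and downwards by 0 genes beside 0.528%. SUS1 and ADH1 were measured only through the study's list. Among the 29 genes named by the platform's annotation, 2 passed upwards, AT1G33055 and AT4G33560. Only 3 of the 8 genes on the study's list passed the criterion, so this form of the thresholds does not give the study's own selection. With any 1 array left out, which leaves less to estimate the spread from, 0 to 2 genes passed upwards. The number of arrays limits the precision, since an exact permutation test of 2 against 2 arrays cannot give a two-sided p below 0.333.

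The 8 genes that the study listed from these arrays all had log2 fold changes above 1, with a median of 1.14. Their choice required a change of at least 2-fold, in either direction. Of the 26 genes not on that list, 6 (23.1%) had an unadjusted limma p under 0.05 with a higher signal, beside 2.73% of all probe sets. At least 2-fold higher among the 26 were AT4G10270, AT4G33560 and AT5G66985, beside 3.72% of all probe sets. All of these were dim in the mock group, and AT4G33560 in both groups. With signals under the 40th percentile of their array raised to it, their log2 fold changes were 0.76, -0.04 and 0.58. The criterion was passed by 1 of the 26, AT4G33560, beside 0.629% of all probe sets.

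**Figure D1:**
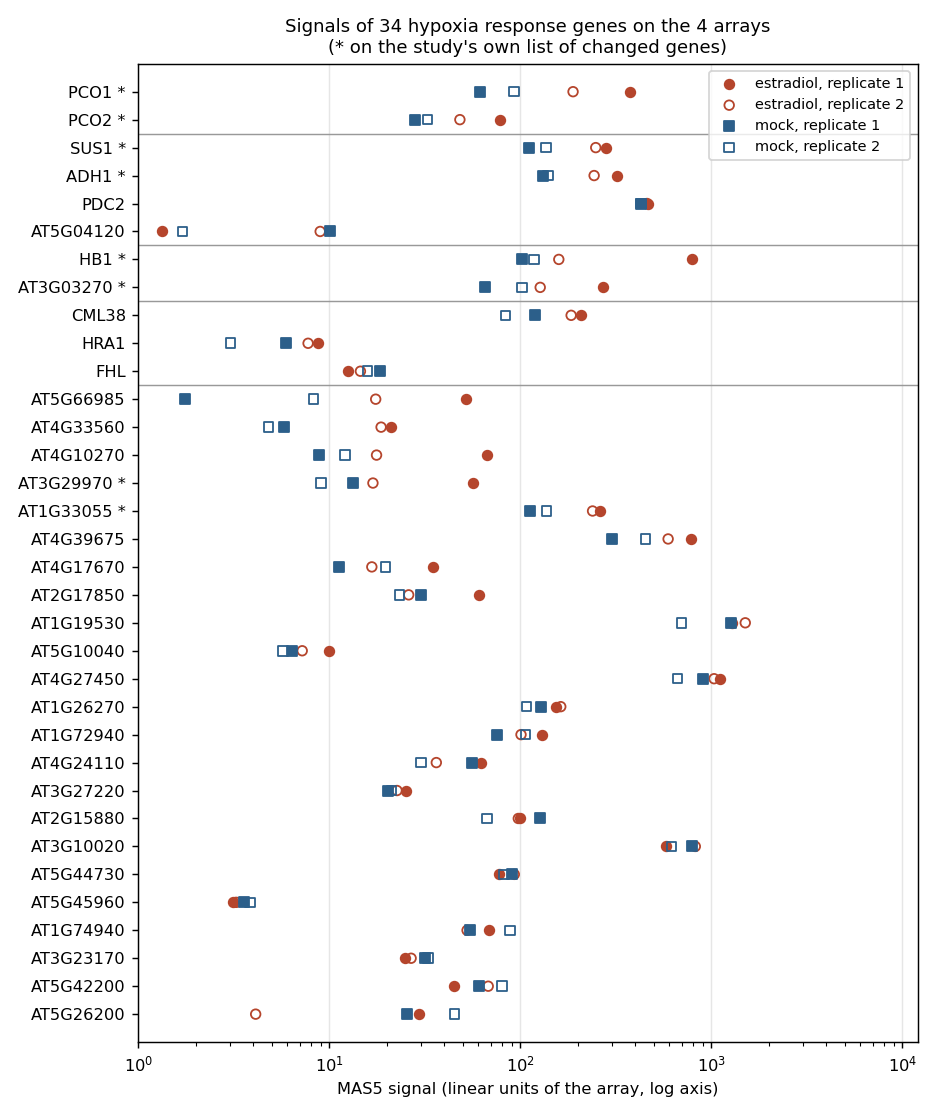
Signals of the 34 measured hypoxia genes on the 4 arrays, in linear MAS5 units on a log axis, with circles for estradiol arrays and squares for mock arrays. Horizontal lines part oxygen sensing, fermentation and sugar breakdown, haem and reactive oxygen, transcription and signalling, and the remaining genes; within each block the genes run from the highest to the lowest log2 fold change, and both circles lie to the right of both squares for 20 genes.

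The measured oxygen sensors, PCO1 and PCO2, had their probe sets named only by the study's list of changed genes, which holds changes in either direction. A large change of both was thus fixed by how they came to be measured, though its direction was not. PCO3, PCO4 and PCO5 had no probe set named here. PCO1 (AT5G15120), a plant cysteine oxidase, had signals of 377 and 189 on the estradiol arrays, against 61.3 and 92.3 on the mock arrays. The lower estradiol signal was still above the higher mock signal, and the log2 fold change was 1.83 (SE 0.37, limma adjusted p = 0.412). PCO2 (AT5G39890), its close relative, had 78.0 and 48.2 on the estradiol arrays, against 27.9 and 32.7 on the mock arrays. Its groups were also apart, with a log2 fold change of 1.02 (SE 0.29). Estradiol array 1 was the higher of the 2 for both oxidases, and without it the log2 fold changes were 1.33 for PCO1 and 0.67 for PCO2. Of the other genes of this pathway, the ERF-VII factors RAP2.12, RAP2.2, RAP2.3, HRE1 and HRE2 had no probe set named here. Of 10 further N-degron genes 1 was measured, the methionine aminopeptidase MAP1A, with 260 and 287 on the estradiol arrays, against 299 and 290 on the mock arrays, a log2 fold change of -0.11 (SE 0.14).

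In fermentation and sugar breakdown, SUS1 and ADH1 passed the criterion upwards, and the other 2 measured genes, PDC2 and AT5G04120, did not. SUS1 and ADH1 were measured only through the study's list, whereas PDC2 and AT5G04120 are not on it. SUS1 (AT5G20830), a sucrose synthase that splits sucrose into fructose and UDP-glucose, had signals of 279 and 248 on the estradiol arrays, against 111 and 136 on the mock arrays, a log2 fold change of 1.10 (SE 0.17). ADH1 (AT1G77120), the alcohol dehydrogenase that reduces acetaldehyde to ethanol, had 322 and 243 on the estradiol arrays, against 131 and 139 on the mock arrays, a log2 fold change of 1.05 (SE 0.18). For both genes the arrays of a group lay close together and the gap between the groups was wider than either spread. Leaving out any 1 array gave log2 fold changes of 0.95 to 1.24 for SUS1 and 0.85 to 1.25 for ADH1.

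PDC2 (AT5G54960), a pyruvate decarboxylase that makes the acetaldehyde used by alcohol dehydrogenase, had 463 and 460 on the estradiol arrays, against 429 and 429 on the mock arrays. The groups did not overlap, but the log2 fold change was 0.11, with a 95% interval of -0.23 to 0.44 from limma's pooled spread, which leaves out a 2-fold change in either direction. AT5G04120 had 1.33 and 8.95 on the estradiol arrays, against 10.04 and 1.70 on the mock arrays. It was dim in both groups, each group held a low and a high array, and its log2 fold change of -0.26 (SE 1.20) changed sign with the array left out, to 1.11 without estradiol replicate 1 and 1.02 without mock replicate 1. PDC1, SUS4 and PFK6 had no probe set named here. Outside the list, the lactate dehydrogenase LDH had 83.9 and 54.6 on the estradiol arrays, against 43.4 and 65.8 on the mock arrays, and its groups overlapped at a log2 fold change of 0.34 (SE 0.31). Of 5 glycolysis and pyruvate genes that the platform names, triose phosphate isomerase (TPI), the enolase ENOC, PGM, GAPC2 and PPDK, 4 had overlapping groups and PGM lay lower, with log2 fold changes of -0.22 for PGM to 0.44 for PPDK and a median of -0.02.

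**Figure D2:**
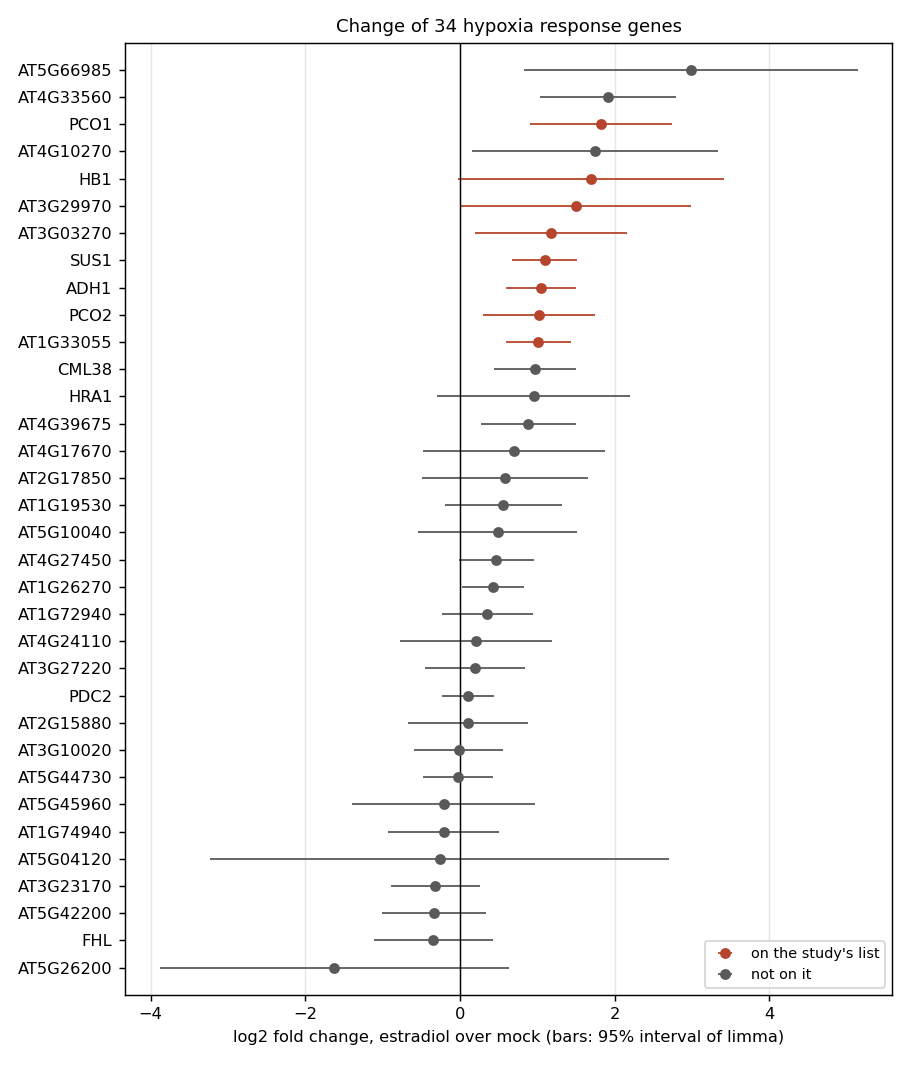
Log2 fold change, estradiol over mock, of the 34 hypoxia genes, sorted by value. Bars are the 95% intervals of limma (n = 2 arrays per group, pooled spread); the 8 genes on the study's own list are drawn in red, and the values run from -1.62 for AT5G26200 to 2.99 for AT5G66985.

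Both measured haem and reactive oxygen genes are on the study's list. HB1 was named by it alone, so a large change of HB1, in either direction, was fixed by how it came to be measured. The platform's annotation named AT3G03270. Both genes were by far the highest on estradiol array 1. HB1 (AT2G16060), a class 1 haemoglobin that scavenges nitric oxide, had signals of 787 and 159 on the estradiol arrays, against 102 and 118 on the mock arrays. Both estradiol signals were above both mock signals, but estradiol array 1 stood far above the other 3 arrays. The log2 fold change was 1.69 (SE 0.70, 95% interval -0.03 to 3.41), and without estradiol replicate 1 it was 0.53. AT3G03270, which the study describes as an adenine nucleotide alpha hydrolase-like protein, had 269 and 127 on the estradiol arrays, against 65.5 and 102 on the mock arrays. Its second estradiol array stood much nearer to the mock arrays than the first, and the log2 fold change of 1.18 (SE 0.40) was 0.63 without estradiol replicate 1. RBOHD and SRO5, also of this group, had no probe set named here.

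Among the transcription and signalling genes, CML38 had the clearest separation. CML38 (AT1G76650), a calmodulin-like calcium sensor, had signals of 209 and 184 on the estradiol arrays, against 120 and 83.7 on the mock arrays, with groups apart and a log2 fold change of 0.97 (SE 0.21). It is not on the study's list. HRA1 (AT3G10040), a trihelix factor that restrains the ERF-VII factor RAP2.12, had 8.70 and 7.73 on the estradiol arrays, against 5.94 and 3.03 on the mock arrays. These signals were dim in both groups, and the log2 fold change of 0.95 (SE 0.50) was -0.04 with a floor at the 40th percentile of each array. FHL (AT5G02200), which helps to bring phytochrome A into the nucleus, was also dim, with 12.4 and 14.5 on the estradiol arrays, against 18.4 and 15.8 on the mock arrays, a log2 fold change of -0.34 (SE 0.31). LBD41, NAC102 and JAZ3 had no probe set named here, nor did the ethylene genes ACO1 and ETR2. Of ethylene signalling genes outside the list that the platform names, EIN3, the master transcription factor, had overlapping groups at 0.02 on the log2 scale, and RTE1, a regulator of the receptor ETR1, had 116 and 144 on the estradiol arrays, against 103 and 101 on the mock arrays, a log2 fold change of 0.35 (SE 0.17).

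The remaining 23 measured genes have no role group here. Both estradiol arrays were above both mock arrays for 11 of them (47.8%), beside 16.1% of all probe sets. Both were below for 2, and the groups of 10 overlapped. AT1G33055, which the study describes as an unknown protein, had signals of 262 and 239 on the estradiol arrays, against 112 and 137 on the mock arrays, and passed the criterion with a log2 fold change of 1.01 (SE 0.17). AT4G39675 had 777 and 593 on the estradiol arrays, against 301 and 451 on the mock arrays, a log2 fold change of 0.88 (SE 0.25). AT1G19530 had 1283 and 1503 on the estradiol arrays, against 1273 and 695 on the mock arrays. The groups of AT1G33055 were well separated. Those of AT4G39675 did not overlap, but in signal units the gap between them was smaller than the difference between the arrays of either group. For AT1G19530 estradiol array 1 and mock array 1 were almost equal, and its log2 fold change of 0.56 (SE 0.31) was 0.13 without mock replicate 2.

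Several of the largest changes in this set belonged to genes with dim mock signals. AT5G66985 had 52.0 and 17.5 on the estradiol arrays, against 1.76 and 8.23 on the mock arrays, the largest log2 fold change of the 34 genes at 2.99 (SE 0.87). AT4G10270 had 67.1 and 17.6 on the estradiol arrays, against 8.80 and 12.0 on the mock arrays, a log2 fold change of 1.74 (SE 0.64). AT3G29970, described by the study as a B12D protein, had 56.5 and 16.9 on the estradiol arrays, against 13.3 and 9.06 on the mock arrays, a log2 fold change of 1.49 (SE 0.60). In all of these estradiol array 1 was far above estradiol array 2, which itself lay above both mock arrays but under its own array's 40th percentile of 21.9. Without estradiol replicate 1 the log2 fold changes were 2.197, 0.78 and 0.62 for AT5G66985, AT4G10270 and AT3G29970, and with the floor at the 40th percentile they were 0.58, 0.76 and 0.64. AT4G33560, past the criterion, had 21.1 and 18.6 on the estradiol arrays, against 5.76 and 4.81 on the mock arrays, a log2 fold change of 1.91 (SE 0.36). All 4 of these signals were below the 40th percentile of their arrays, and with the floor there the value was -0.04.

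Of the other genes with both estradiol arrays above both mock arrays, AT1G26270, AT3G27220, AT4G27450 and AT5G10040 had log2 fold changes of 0.20 to 0.49. The 0.49 was that of AT5G10040, which was dim in both groups and at -0.04 with the floor. AT3G27220 was dim in the mock group and at 0.07 with the floor. AT1G26270 had 153 and 163 on the estradiol arrays, against 128 and 107 on the mock arrays. AT4G27450 had 1104 and 1032 on the estradiol arrays, against 899 and 664 on the mock arrays. Both estradiol arrays were lower than both mock arrays for FHL and for AT3G23170 and AT5G45960, the last dim in both groups, at -0.32 and -0.21. The 11 genes with overlapping groups were AT1G72940, AT1G74940, AT2G15880, AT2G17850, AT3G10020, AT4G17670, AT4G24110, AT5G04120, AT5G26200, AT5G42200 and AT5G44730, 5 with a positive and 6 with a negative log2 fold change. The lowest value among them, -1.62 for AT5G26200, came from 29.4 and 4.11 on the estradiol arrays, against 25.5 and 45.1 on the mock arrays. There estradiol array 1 lay between the mock arrays and estradiol array 2 stood far below them. Also with no probe set named here, beside the genes already given, were PHI-1, FTM1, UKL3, PP2-A11, PP2-A13, NIP2;1, ACR7 and AT4G10265.

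The 2 estradiol arrays differed from each other in these genes. Estradiol array 1 gave the higher signal of the 2 for 25 of the 34 genes, by at least 2-fold for 8, and estradiol array 2 was higher by at least 2-fold for 1, AT5G04120. Over all probe sets array 1 was the higher for 46.5%. It was higher by at least 2-fold for 5.94%, and array 2 for 5.54%. Among probe sets not dim in both groups these shares were 48.8%, 2.27% and 0.733%. Of the 28 hypoxia genes not dim in both groups, array 1 was the higher for 22. It was higher by at least 2-fold for 8, and array 2 for 0. The 8 genes were HB1, AT3G03270, AT2G17850, AT3G29970, AT4G10270, AT4G17670, AT5G26200 and AT5G66985. KUA1 ran the other way, 1887 on estradiol array 1 and 3373 on estradiol array 2. All 8 genes on the study's list were higher on estradiol array 1, with a median log2 difference of 0.85 between the 2 arrays, and the 26 not on the list had a median of 0.16. The mock arrays were at least 2-fold apart for 2 of the 34 genes, AT5G04120 and AT5G66985. The share of all probe sets with mock arrays that far apart was not computed, so this count has no background beside it.

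**Figure D3:**
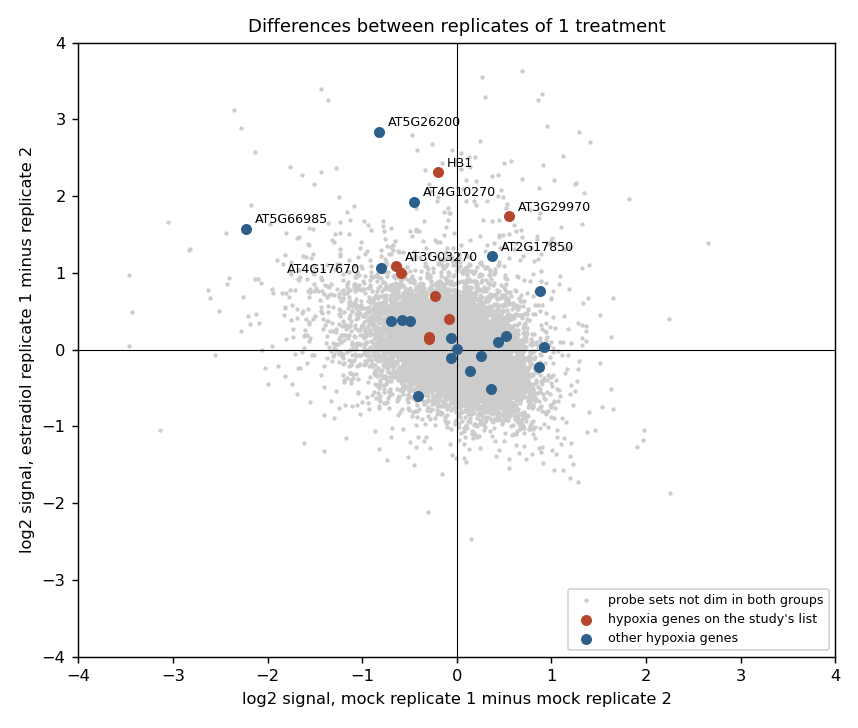
Log2 signal of estradiol replicate 1 minus estradiol replicate 2 (vertical) against mock replicate 1 minus mock replicate 2 (horizontal), for probe sets not dim in both groups (grey; 3 lie outside the axes, which end at 4) and 28 hypoxia genes (red on the study's list, blue not on it). Genes with estradiol arrays at least 2-fold apart are named, and all 8 of them lie above 0 on the vertical axis.

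Of the 26 genes not on the study's list, estradiol array 1 alone lay above both mock arrays for 16, beside 30.6% of all probe sets, and estradiol array 2 alone for 14, beside 33.8%. The 8 genes on the list lay above on both arrays, which makes 24 and 22 of the 34. The median of the 26 was 0.17 on the log2 scale without estradiol replicate 1 and 0.42 without estradiol replicate 2. Without estradiol replicate 1 the median on the log2 scale was 0.45 over the 34 genes and 0.01 over all probe sets. Without estradiol replicate 2 these medians were 0.66 and -0.02. At least 2-fold higher were 5 of the 34 genes without estradiol replicate 1, beside 4.69% of all probe sets, and 16 without estradiol replicate 2, beside 5.13%. Of the 26 genes not on the list, these were 3 and 8, and 3 with all arrays.

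**Figure D4:**
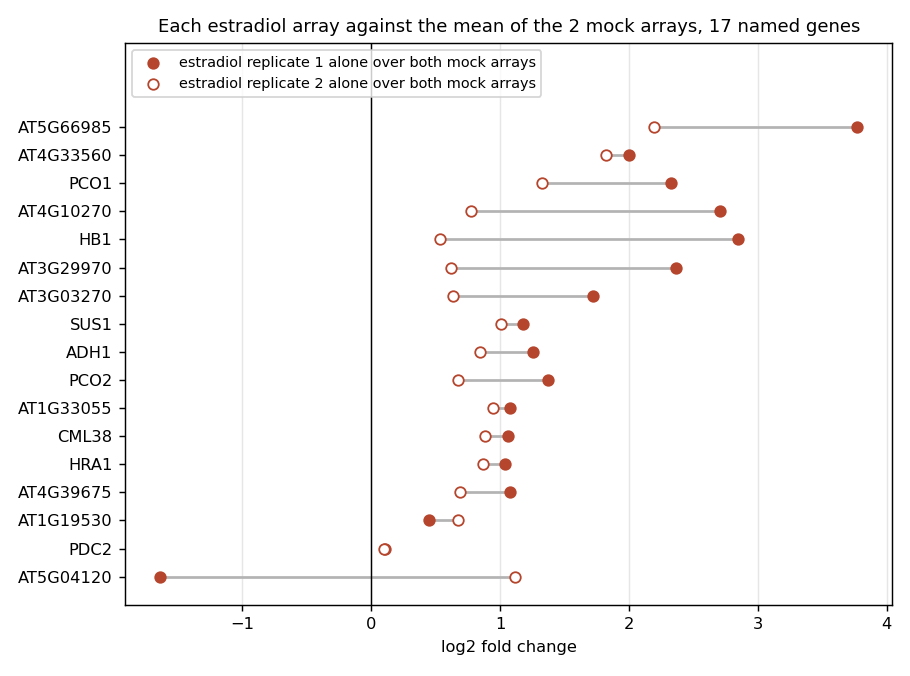
Log2 fold change of 17 hypoxia genes when each estradiol array alone is set against the mean of the 2 mock arrays (filled circles, estradiol replicate 1; open circles, estradiol replicate 2). HB1 lies at 2.84 and 0.53 and PCO1 at 2.32 and 1.33, whereas for SUS1, PDC2, AT1G33055 and AT4G33560 the circles almost meet.

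Several markers of the tissues in a whole seedling were lower on the estradiol arrays, but none passed the criterion. The markers were taken from those the platform names, as none of the 7 shoot and 10 root markers listed first had a probe set named here, and were chosen after seeing which genes were named. Of 8 photosynthesis genes of the shoot, 5 had both estradiol arrays below both mock arrays, beside 18.0% of all probe sets. The groups of 3 overlapped, none had both estradiol arrays above, and the median log2 fold change was -0.16. Their summed signal was 11922 and 12304 on the estradiol arrays, against 13176 and 14136 on the mock arrays. All 3 root genes, PYK10, EXPA7 and EXPA18, were lower on both estradiol arrays, with log2 fold changes of -0.23, -0.80 and -1.44 and summed signals of 1902 and 1943 on the estradiol arrays, against 2057 and 2548 on the mock arrays. Most of these sums was PYK10, with 1861 and 1906 on the estradiol arrays, against 1994 and 2446 on the mock arrays. EXPA18 is on the study's list of changed genes. It was dim in the estradiol group, and its log2 fold change was -0.71 with the floor. The part of tissue composition in the hypoxia gene values was not tested.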

How the data were processed

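RNA of 2 estradiol-treated and 2 mock-treated biological replicates was hybridised to ATH1 arrays. The deposited values are the authors' MAS5 signal intensities on a linear scale, scaled so that each array averages 100.0 without its lowest and highest 2% of signals. The MAS5 version and any step between arrays are not given in the sources used here.

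Probe sets (22810, less 64 controls) were named through Entrez gene and RefSeq locus (assembly TAIR10.1) from the platform table (13333 genes with a probe set of their own) or, for 78 more, from the study's list of changed genes. The brightest probe set stood for a gene. Each measured hypoxia gene had only 1. Log2 signals of all 22746 probe sets were fitted with lmFit and eBayes of limma 3.58.1 under R 4.3.3, with a variance trend on intensity and without a block, and p-values were adjusted by Benjamini-Hochberg. The paper's criterion is the methods' t-test (equal variances, unadjusted p under 0.05) with at least 2-fold between geometric means. Scripts were tested on simulated data. The spread behind the p-values is that of these samples only.

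All 4 signals were given for genes past the criterion, those with groups apart and an absolute log2 fold change of at least 0.5, and the measured genes of the role groups. Other genes were named after their values were seen. Members and lists were chosen with earlier results of these data known.

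The alternatives tried were a floor (signals under the 40th percentile of their array raised to it), log2(signal + 32), scaling to the median, quantile normalization, no dim probe sets, limma without the trend, the replicate number as a block, each array left out, the methods' t-test after adjustment or on linear signals, and subsets of the genes. Promoter motifs were not analysed here.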

Additional observations from a re-analysis of the deposited data

How the results depend on the processing

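With 2 arrays per group, limma called 0 probe sets with the replicate block as without it, also with each array left out, and the median over the 34 genes, on the log2 scale, was 0.53 with the block. Same-numbered arrays deviated in opposite directions (correlation -0.13 over 22746 probe sets and -0.30 over the 14060 not dim in both groups), and the crossed pairing, chosen after seeing the data, called 3 probe sets and 0 of the genes. Leaving out 1 array moved the median between 0.40, without mock replicate 2, and 0.67, without mock replicate 1. The median was 0.30 with log2(signal + 32), 0.32 with the floor and 0.28 for the 26 genes not on the study's list (a subset chosen after seeing the data). The 4 genes past the criterion became 0 with log2(signal + 32), 0 after Benjamini-Hochberg, 2 among the 29 genes named by the platform and 1 among the 26. With the floor, limma called 565 probe sets and 12 of the genes. In that fit the floored probe sets have nearly equal values and the prior degrees of freedom became infinite, so a gene's own spread no longer counted. Genes with both estradiol arrays above both mock arrays numbered 13 with the floor and 12 among the 26, and genes with both below numbered 1 with the floor and 1 without dim probe sets. Of 201 values for the 17 genes named by rule, 197 kept their direction. The 4 others were -0.038 for HRA1 and for AT4G33560 with the floor, and 1.11 and 1.02 for AT5G04120 without estradiol replicate 1 and without mock replicate 1, whose values ran from -1.64 to 1.11 over the arrays left out. Averaging probe sets changed nothing, as each gene had 1. With 1 array left out, 22 to 24 genes had estradiol above mock and 5 to 7 below, against 20 and 3 with all arrays. Groups that are apart stay apart when an array is left out. These counts could thus only stay or rise, and they do not test the result. The criterion and the placing of groups were not computed with the block. Signals near the 40th percentile limit what dim genes can show.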
